A study of Oryza sativa with 6 samples.

Results

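The plasma membrane intrinsic proteins (PIPs) are the aquaporins of the plant cell surface, and 10 PIP loci of rice, given by their locus identifiers, were followed in the internode. They comprised 3 PIP1 loci and 7 PIP2 loci, out of 29689 loci with a probe on the array, and every probe whose name began with one of the 10 identifiers was taken, 30 probes in all. The tissue came from OsCAld5H1-knockout and wild-type plants of the cultivar Nipponbare, with 3 biological replicates and 1 array per replicate in each genotype. The knockout plants were T2 plants of a single CRISPR/Cas9-edited line, and OsCAld5H1 encodes a coniferaldehyde 5-hydroxylase, an enzyme of syringyl lignin synthesis. Each sample was the middle part of the second internode, counted downwards, at heading, from plants kept at 27 °C with 12 h of light a day. Gene names are spelled as in the RefSeq table for rice (assembly ASM3414082v1), in which all 10 PIP names occur.

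Aquaporins are tetramers in which each subunit forms its own pore, and PIPs carry water between the cell wall space and the cytosol. PIP2 proteins are in general efficient water channels when expressed alone. PIP1 proteins generally need a PIP2 partner, with which they form mixed tetramers, to reach the plasma membrane. In stems they are known for water exchange along the vascular tissue and for the water uptake of elongating cells.

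Values are the log2 of the processed spot intensity minus the 75th percentile of the same array, so that 0 is the 75th percentile of the gene spots and a difference of 1 is a 2-fold change. Each array had between 73.4% and 77.4% of its gene spots well above background, no gene spot was saturated, and precision is limited by there being 3 arrays a genotype. Each slide held arrays of 1 genotype, and effects of slide and of genotype cannot be told apart. At the edited gene, OsCAld5H1 (Os10g0512400, chromosome 10), the log2 signal was -4.00, -1.78 and -1.23 in knockout replicates 1, 2 and 3, against -0.54, -0.52 and -0.05 in the wild-type replicates. The difference there was -1.97 ± 0.70 (SE, n = 3 per genotype; limma adjusted p 0.205), and the position of its probe relative to the edit is not known here. Across probes, knockout replicate 1 correlated with the other knockout arrays at 0.972 and 0.968, and these with each other at 0.984. Some results are therefore also given without knockout replicate 1. They are the median, signs and p-value counts over the tested PIP probes, and the difference at 1 probe or more of each tested PIP locus. Overlap between the genotypes was counted over all 6 arrays only. Among markers of the stem, the secondary wall cellulose synthases CESA4, CESA7 and CESA9 were well above background on all 6 arrays. So were 5 of 5 genes of green tissue. The log2 of their summed linear signal, which the brightest genes dominate, was 7.24 to 7.88 in knockout and 7.43 to 8.18 in wild-type arrays. At their brightest probes 3 were lower and 2 higher in the knockout. The largest of these differences, 1.58 (limma adjusted p 0.112), was at probe D00643 of RBCS Os12g0274700. The other probes of that locus differed by only 0.02 to 0.48 (limma adjusted p 0.67 to 0.99), with the genotypes overlapping. Of 3 genes of dividing cells 1 was bright enough to test.

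The 10 listed PIP loci divided into 7 with signal in the internode, which were tested, and 3 at or near background, which were not. None of the 7 tested loci changed past the threshold between the genotypes by limma. In tissue samples of this kind fewer cells of a type and less RNA per cell cannot be told apart. The 24 probes of PIP1-1, PIP1-2, PIP1-3, PIP2-1, PIP2-2, PIP2-4 and PIP2-6 were well above background on all 6 arrays and were tested. By limma with Benjamini-Hochberg adjustment over all 32135 tested probes, 0 of the 24 had an adjusted p under 0.05, where 3.16% of all tested probes did (1.29% lower and 1.87% higher in the knockout). With an unadjusted p under 0.05 there were 2 of the 24 (8.33%), against 19.1% of all tested probes, and limma-trend and array weights also called 0 with 2 under that unadjusted level. The difference, knockout minus wild-type, was below 0 for 23 of the 24 probes, against 49.4% of all tested probes, and the median difference was -0.14, against 0.0046 over all tested probes. Every knockout array lay below every wild-type array at 2 of the 24 probes and above at 0, against 13.4% and 13.5% of all tested probes. Most of the 24 probes share a target, and at the brightest probe of each locus 7 of 7 differences were below 0, against 49.8% of 21799 loci. The signs depended on scaling: after normexp background correction and quantile normalization 19 of the 24 were below 0. Among the brightest probes, those of PIP1-1 (0.049) and PIP2-6 (0.063) were then above 0. Leaving out 1 array also put the brightest probe of PIP1-3, PIP2-2 or PIP2-6 above 0 in some cases. Without knockout replicate 1 the median was -0.31, against 0.0087 over all probes, and 23 of the 24 were below 0, against 48.9%. In that setting 0 of the 24 were called, where 603 lower and 936 higher were called of 32605 probes. An unadjusted p under 0.05 was then found for 9 of the 24. The share of all probes under that level was not computed there, so the 9 are not read as a result about the PIPs.

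**Figure D1:**
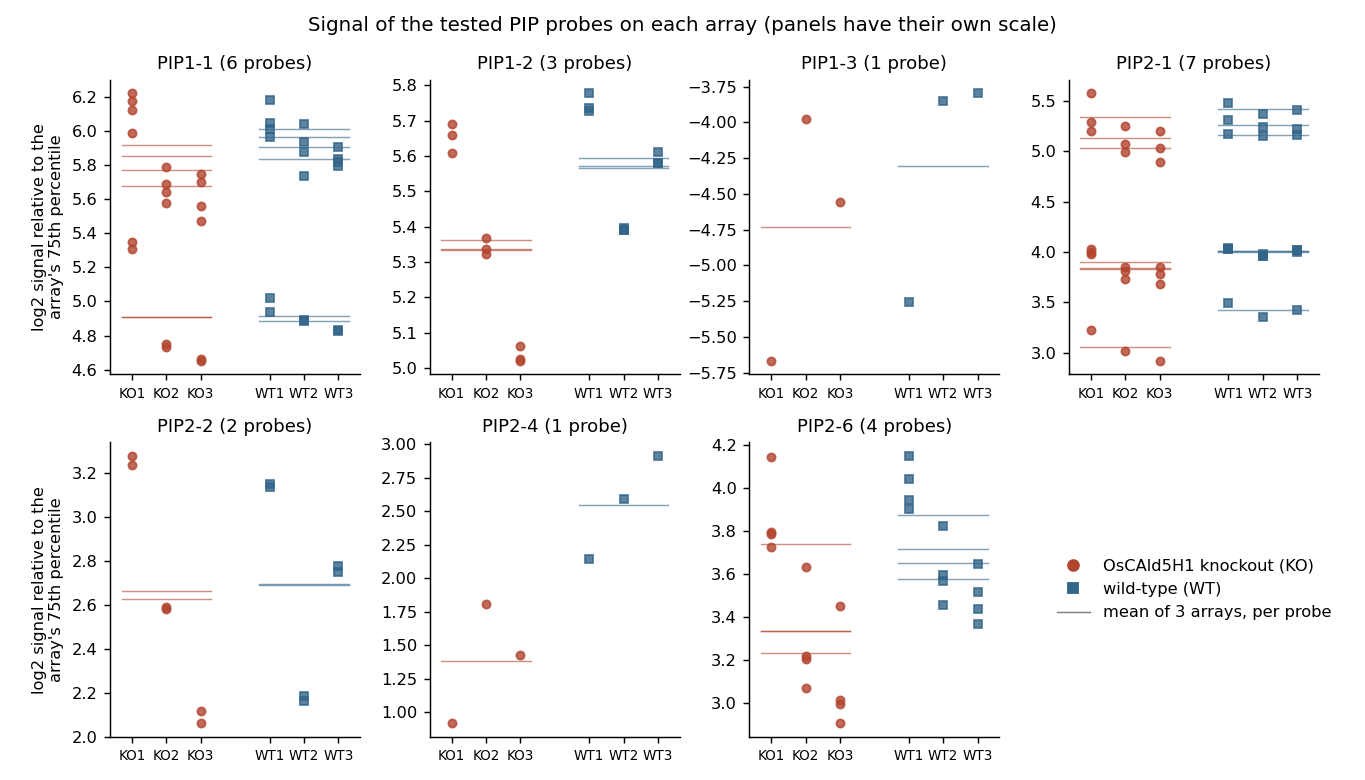
Log2 signal relative to the array's 75th percentile (vertical axis) on each knockout (circles) and wild-type (squares) array for the 24 tested PIP probes, with 1 panel per locus and a line at each probe's mean over 3 arrays. At PIP2-4 every knockout array lay below every wild-type array, while at PIP1-1 and PIP2-2 the genotypes overlapped.

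PIP1-1 (Os02g0666200, chromosome 2), first described as the water channel RWC1, was represented by 6 probes. At its brightest probe, AB009665, the log2 signal was 6.22, 5.79 and 5.75 in knockout replicates 1, 2 and 3, against 6.18, 6.04 and 5.82 in the wild-type replicates. The genotypes overlapped, with knockout replicate 1 the highest of all arrays and the other knockout arrays the lowest. The difference was -0.09 ± 0.18 (SE, n = 3 per genotype), with a 95% interval from -0.52 to 0.33 and a limma adjusted p of 0.818, and it was -0.24 without knockout replicate 1. The probes fell into 2 sets by the transcript that the array's design assigns them. The 4 assigned to Os02t0666200-02 (AB009665, AF022737, AK104658 and AK061769) differed by -0.15 to -0.09, and the 2 assigned to Os02t0666200-01 (AK103807 and AJ224327) by -0.0023 and 0.02. At AK061769 of the first set the knockout arrays read 5.99, 5.57 and 5.47, against 5.96, 5.74 and 5.79 in the wild-type arrays. At AK103807 of the second the knockout arrays read 5.35, 4.73 and 4.65, against 5.02, 4.89 and 4.83 in the wild-type arrays. At both, knockout replicate 1 was the highest of the 6 arrays and the other knockout arrays were the lowest. After normexp the first set ran from -0.0061 to 0.049 and the second from -0.10 to -0.0015, so the order of the sets turned with the scaling.

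PIP1-2 (Os04g0559700, chromosome 4) is a further PIP1 locus, well above background on every array. Its log2 signal at AK065188 was 5.69, 5.37 and 5.03 in knockout replicates 1, 2 and 3, against 5.78, 5.39 and 5.61 in the wild-type replicates. The genotypes overlapped in knockout replicate 1, and knockout replicate 3 was the lowest array. Its 3 probes, AK065188, AK104736 and AK098849, gave nearly the same difference, from -0.24 to -0.23, with limma adjusted p values from 0.526 to 0.582. For AK065188 the 95% interval ran from -0.72 to 0.26. The size depended on single arrays: at AK065188 it was -0.40 without knockout replicate 1 and -0.06 without knockout replicate 3, though the sign stayed below 0 in all 15 alternatives run for each of the 3 probes.

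PIP1-3 (Os02g0823100, chromosome 2), also known as RWC3 and studied in rice for its response to water deficit, was dim but well above background on every array. Its 1 probe, AK102174, gave a log2 signal of -5.67, -3.98 and -4.56 in knockout replicates 1, 2 and 3, against -5.26, -3.85 and -3.80 in the wild-type replicates. Replicate 1 of each genotype was more than 1 log2 unit below the other arrays of that genotype, and the genotypes overlapped. The difference was -0.43 ± 0.56 (SE, n = 3 per genotype), with a 95% interval from -1.79 to 0.93 and a limma adjusted p of 0.723. Without wild-type replicate 1 it was -0.91, and without knockout replicate 1 it was 0.036. PIP1-3 had the largest spread over the 6 arrays of the tested PIP loci, with an SD of 0.79. The loci that followed it most closely over these 6 arrays were Os02g0304900 (Pearson's r 0.996) and Os01g0392100 (0.993). They were the highest among tested probes named by a locus identifier, outside the listed PIP loci. Among the other aquaporins they were PIP2-5 (0.646) and SIP2-1 (0.572). These are descriptions over few arrays that share 2 slides, and no test was made of them.

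PIP2-1 (Os07g0448800, chromosome 7), a water channel also known as PIP2a, had 7 tested probes, more than any other member. At the brightest, AK119656, the log2 signal was 5.58, 5.25 and 5.20 in knockout replicates 1, 2 and 3, against 5.48, 5.37 and 5.41 in the wild-type replicates. The genotypes overlapped only through knockout replicate 1, and the wild-type arrays lay within a narrow band. The difference was -0.08 ± 0.14 (SE, n = 3 per genotype), with a 95% interval from -0.41 to 0.25 and a limma adjusted p of 0.797, and it was -0.19 without knockout replicate 1. The 6 probes that the design places across coding sequence and 3′ UTR differed by -0.17 to -0.08. They were AK119656, AK103938, AK103970, AF062393, AK072519 and AB029446, and after normexp 5 of them stayed below 0 while AK072519 was at 0.054. At AK103938 the knockout arrays read 5.29, 5.08 and 5.03, against 5.31, 5.24 and 5.22 in the wild-type arrays. Knockout replicate 1 lay within the narrow wild-type range and the other knockout arrays below it. The 1 probe placed in UTR sequence alone, AK060712, read 3.22, 3.02 and 2.92 in the knockout arrays, against 3.49, 3.36 and 3.43 in the wild-type arrays. At this probe the genotypes did not overlap, with the knockout lower. Its difference was -0.37, with an interval from -0.67 to -0.07 and a limma adjusted p of 0.180 (range over the alternatives 0.0734 to 0.446). The intervals of the other 6 probes of PIP2-1 overlapped this one, and the difference between the probes was not tested.

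PIP2-2 (Os02g0629200, chromosome 2) varied widely between arrays of the same genotype. At AK120386 the log2 signal was 3.28, 2.59 and 2.12 in knockout replicates 1, 2 and 3, against 3.15, 2.19 and 2.75 in the wild-type replicates. Replicate 1 was the highest array in each genotype, and the genotypes overlapped throughout. The difference was -0.03 ± 0.36 (SE, n = 3 per genotype), with a 95% interval from -0.92 to 0.85 and a limma adjusted p of 0.973. It was -0.34 without knockout replicate 1 and 0.24 without knockout replicate 3. No difference was detectable at this spread between arrays. The other probe, AK061782, read 3.24, 2.58 and 2.06 in the knockout arrays, against 3.14, 2.16 and 2.78 in the wild-type arrays, and differed by -0.07. Both probes are assigned to 1 transcript, and they gave nearly the same profile over the arrays.

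PIP2-6 (Os04g0233400, chromosome 4) had 4 probes. At AK102155 the log2 signal was 3.79, 3.22 and 3.00 in knockout replicates 1, 2 and 3, against 4.04, 3.60 and 3.52 in the wild-type replicates. Knockout replicate 1 lay within the wild-type range and the other knockout arrays below it. The 3 probes assigned to transcript Os04t0233400-01 (AK102155, AK061491 and AK061312) differed by -0.38 to -0.31. At AK102155 the difference was -0.61 without knockout replicate 1 and -0.21 without knockout replicate 3, and at AK061491 it was -0.54 and -0.15. The brightest probe, AK119661, which the design assigns to Os04t0233400-02, differed by -0.13 ± 0.22 (SE, n = 3 per genotype). Its 95% interval ran from -0.68 to 0.41, and its difference was 0.063 after normexp, -0.33 without knockout replicate 1 and 0.014 without knockout replicate 3. The limma adjusted p of the 4 probes ran from 0.462 to 0.793.

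**Figure D2:**
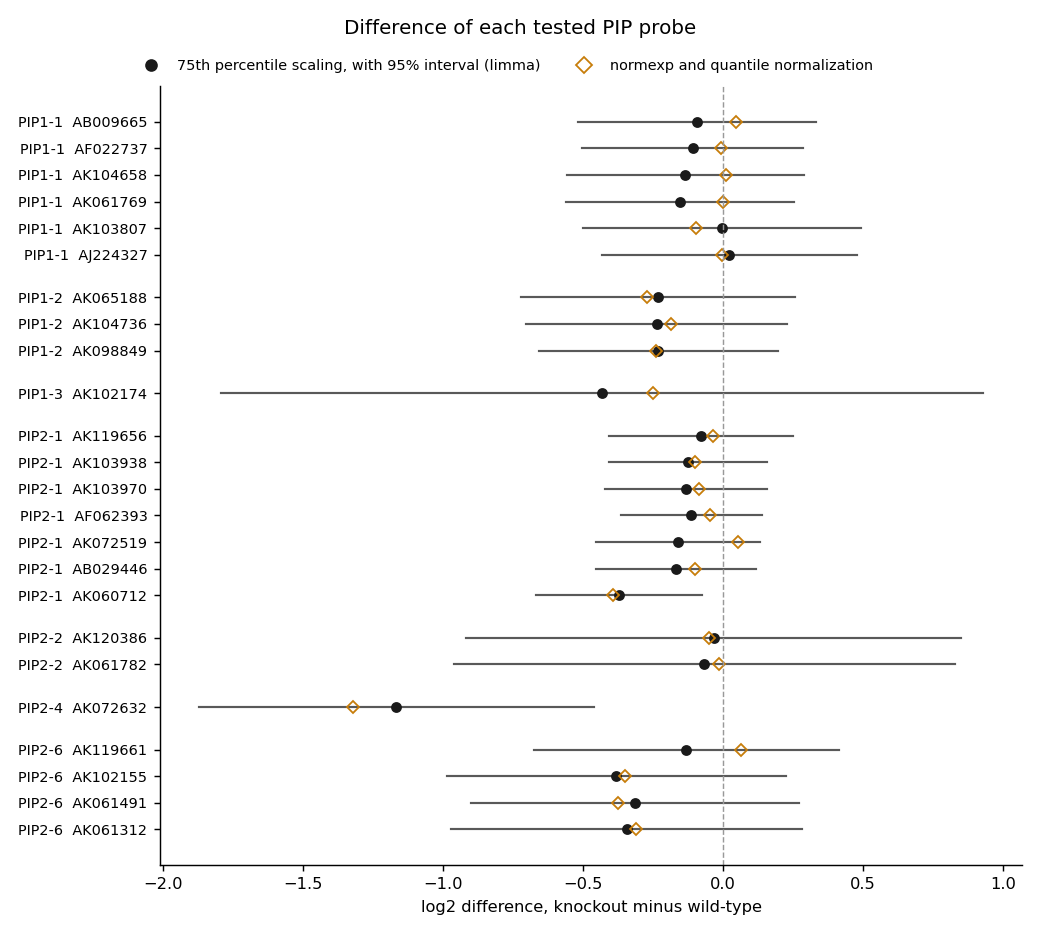
Log2 difference, knockout minus wild-type (horizontal axis), for the 24 tested PIP probes, with filled circles and 95% intervals from limma after 75th percentile scaling, and open diamonds after normexp and quantile normalization. The interval excluded 0 for AK072632 of PIP2-4 and AK060712 of PIP2-1 and spanned it for the other 22 probes.

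Among the tested probes of the 10 listed loci the largest difference was at PIP2-4 (Os07g0448100, chromosome 7), whose 1 probe, AK072632, was 2.24-fold lower in the knockout without passing the threshold. Its log2 signal was 0.92, 1.81 and 1.42 in knockout replicates 1, 2 and 3, against 2.14, 2.59 and 2.91 in the wild-type replicates. Every knockout array was below every wild-type array, with a gap of 0.33 between the nearest arrays. The difference was -1.17 ± 0.29 (SE, n = 3 per genotype), with a 95% interval from -1.87 to -0.46 and a limma adjusted p of 0.103. Over 15 alternatives it ran from -1.38 to -0.93 and the adjusted p from 0.0587 to 0.304, so it passed in none of them. Leaving out knockout replicate 1 gave -0.93 and an adjusted p of 0.107.

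PIP2-4 stands in a tandem cluster on chromosome 7. In the RefSeq table of assembly ASM3414082v1 it is followed by PIP2-5 and then by PIP2-1, with 0 protein-coding genes between them. PIP2-5 (Os07g0448200) is outside the 10 loci and known in rice chiefly from roots. Its 1 probe read -0.90, -0.01 and -0.38 in knockout replicates 1, 2 and 3, against 0.76, 1.34 and 1.64 in the wild-type replicates. Here too every knockout array was below every wild-type array. PIP2-5 fell by 1.67 in log2 units, or 3.19-fold (SE 0.31, n = 3 per genotype), with a limma adjusted p of 0.0476, and that call ended in 10 of 15 alternatives, among them normexp (0.0548) and leaving out any single array (0.0603 to 0.170). At the third gene of the cluster, PIP2-1, the differences were the small ones given above. Neighbouring PIP genes are close in sequence, and how much of one transcript binds another's probe was not tested.

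The order of the arrays within a genotype was not the same at every member. At all 22 probes of PIP1-1, PIP1-2, PIP2-1, PIP2-2 and PIP2-6, replicate 1 was the highest array both in the knockout and in the wild-type. That was so for 19.3% of all tested probes, but probes of 1 locus share a target and are not independent. At PIP1-3, PIP2-4 and the neighbour PIP2-5 replicate 1 was the lowest array in both genotypes, as it was for 18.8% of all tested probes. As medians over the probes of a locus, relative to the wild-type mean, knockout replicates 1, 2 and 3 were at 0.21, -0.24 and -0.26 for PIP1-1 and at 0.14, -0.47 and -0.65 for PIP2-6. The wild-type replicates were at 0.11, -0.03 and -0.07 for PIP1-1 and at 0.31, -0.10 and -0.21 for PIP2-6. The corresponding values for PIP2-4 were -1.63, -0.74 and -1.13 in the knockout and -0.41, 0.04 and 0.36 in the wild-type. These loci were grouped after their values were seen, and no test was made of the grouping. All 24 probes also had a larger SD over the knockout than over the wild-type arrays (medians 0.31 and 0.14), as 80.2% of all tested probes did.

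**Figure D3:**
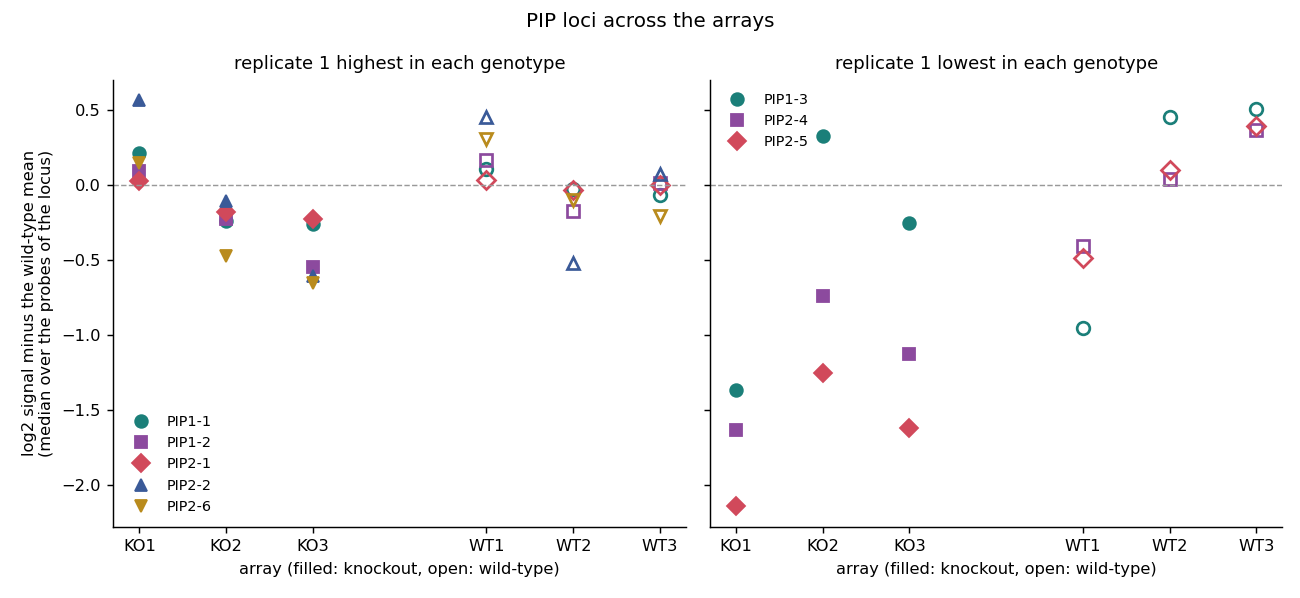
Log2 signal of each locus minus its wild-type mean (vertical axis; median over the probes of the locus) on each knockout (filled) and wild-type (open) array. In the left panel replicate 1 was the highest array of both genotypes, and in the right panel, which holds PIP1-3, PIP2-4 and the neighbour PIP2-5, it was the lowest.

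The remaining 3 members gave no level that could be compared. PIP2-3 (Os04g0521100, chromosome 4), known in rice chiefly from roots, was not well above background on any array, with its 1 probe, CI561264, between -9.15 and -8.50 in knockout and between -9.53 and -8.62 in wild-type arrays. PIP2-7 (Os09g0541000, chromosome 9) had 4 probes. Of these AK119719 was well above background on knockout replicate 3 (-5.20) and wild-type replicate 3 (-5.24), AK109439 and AK104786 on wild-type replicate 3 alone (-6.66 and -6.56), and AK067792 on none. PIP2-8 (Os03g0861300, chromosome 3), at its 1 probe AK109024, was well above background on wild-type replicate 2 alone (-7.05). None of these 6 probes met the condition for testing, which was signal well above background on all 3 arrays of at least 1 genotype, and a level below this limit does not show that the transcript was absent.

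Among the other aquaporins, 22 loci of the tonoplast (TIP), nodulin 26-like (NIP) and small basic (SIP) groups with PIP2-5 were listed, 20 had a probe and 15 were tested. At the brightest probe of each, 4 fell, 0 rose and 11 did not pass, with a median difference of -0.37. Of all tested loci 3.41% passed in either direction and 1.24% fell. An unadjusted p under 0.05 was found for 7 of the 15, against 19.6% of all tested loci, and 8 of the 15 were lower on every knockout array than on any wild-type array, against 13.6%. In the 7 listed PIP loci 0 passed and the median was -0.13, and the difference between the lists was not tested. The 15 include PIP2-5, itself a PIP that passed. By group, 1 of 7 TIP, 2 of 5 NIP and 0 of 2 SIP loci passed. Besides PIP2-5 the 4 were TIP2-1, NIP1-2 and NIP2-1. NIP2-1 (Os02g0745100), the silicon influx channel Lsi1 of the root, read -2.46, -1.73 and -1.58 in knockout replicates 1, 2 and 3, against -0.27, -0.27 and 0.19 in the wild-type replicates. It fell by 1.81 ± 0.27 (log2, SE, n = 3 per genotype; limma adjusted p 0.0266), and the call ended without knockout replicate 2 or any wild-type array (0.0817 to 0.113). NIP1-2 (Os01g0202800) read 0.16, 0.13 and 0.33 in the knockout arrays, against 1.05, 1.07 and 0.89 in the wild-type arrays. It fell by 0.79 ± 0.12 (limma adjusted p 0.0260), and the call ended in 6 of 15 alternatives, among them no filter on dim probes (0.0503) and leaving out knockout replicate 2 or any wild-type array (0.0843 to 0.123). TIP2-1 (Os02g0658100), a vacuolar water channel, was not well above background on any knockout array and entered the test through the wild-type arrays alone. A filter asking for signal well above background on all 6 arrays left it untested. Its limma adjusted p was 0.0140 at the brighter probe. With the knockout put at the lowest signal called well above background, that probe was 18.7-fold lower in the knockout. This is an approximate bound, as some brighter spots were not called so, and it holds for this scaling alone. The approximate bound at its other probe was 14.7-fold. After normexp the log2 difference at the brighter probe was -1.998 and the call ended (0.0580), as it did without knockout replicate 2 (0.0511) or wild-type replicate 1 (0.0729). Each of these 4 was lower on every knockout array than on any wild-type array, but they were picked by the test, so this is no separate evidence. TIP2-1 is also among the 7 and the 8 of the 15 counted above.

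**Figure D4:**
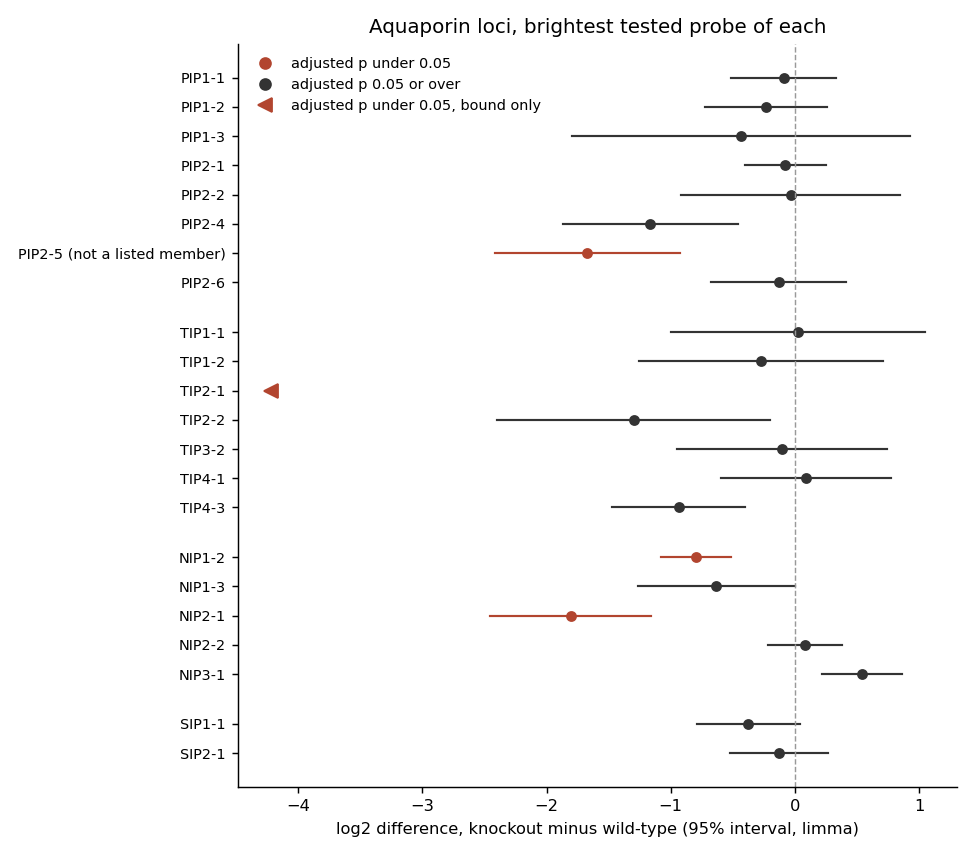
Log2 difference, knockout minus wild-type (horizontal axis, 95% interval from limma), at the brightest tested probe of 7 PIP loci and 15 other aquaporin loci. A triangle marks the approximate bound for TIP2-1. The 7 listed PIP loci ran from -1.17 to -0.03, and the 4 loci past the threshold were PIP2-5, TIP2-1, NIP1-2 and NIP2-1.

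Genes known chiefly from roots were set beside these values. Of 3 root markers, Lsi1, Lsi2 and RCc3, the first 2 were tested and RCc3 was not well above background on any array. The log2 of the summed linear signal of Lsi1 and Lsi2, to which Lsi1 gave most, was -2.21 to -1.32 in knockout and -0.11 to 0.29 in wild-type arrays. Lsi2 differed by -0.96 ± 0.34 (SE, n = 3 per genotype; limma adjusted p 0.208). Lsi1 is NIP2-1 itself, so this list is not independent of the aquaporins. Their part in the values of PIP2-4 and PIP2-5 was not tested.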

How the data were processed

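Per the labels' protocols, Cy3-labelled cRNA was made from 0.1 µg total RNA for Agilent 1-colour rice arrays. In the deposited scanner files the processed signal is an intensity from which Feature Extraction has subtracted background and a spatial trend, per the file headers. The version, 12.0.3.1, comes from the submitters' processing notes. The spot flags are other columns of the deposited files. The authors' deposited value table holds intensity equal to the processed signal times 1 constant per array (1.51 to 1.72), with medians of 376 to 388; it is linear, uncentred and carries no ratio, and the origin of the constants is unknown.

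Of 43734 gene spots, 590 design controls and 5 to 9 outlier spots per array were left out, giving 42418 probes. Values are log2 intensity minus the array's 75th percentile. Probes well above background (over 0.5 of spots) in all 3 replicates of either genotype or both, and measured on 2 or more arrays of each, were tested by limma 3.58.1 in R 4.3.3 (two-sided moderated test, genotype as the one term, Benjamini-Hochberg, threshold 0.05). The scripts were tested on simulated data. Replicates are separate biological samples per the labels.

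The members and lists were chosen with earlier results of these data known. All PIP probes are named; of 22 other aquaporins PIP2-5, those called and the 3 largest differences without overlap are. The names of 10 of 10 PIP and 19 of 22 other loci occur in the RefSeq table (ASM3414082v1), each on the chromosome encoded in its locus identifier. The array header names build IRGSP5, so no coordinates are given. Alternatives covered normexp (offset 50), quantile normalization, the authors' values, filters, outlier spots, the replicate block, limma-trend, array weights, thresholds and leaving out each array. Slide could not be a block, since no slide holds both genotypes.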

Additional observations from a re-analysis of the deposited data

How the results depend on the processing

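None of the 24 probes of the listed PIP loci was called under any alternative that was run, at 9 other settings, at thresholds of 0.01 and 0.10 and with each of 6 arrays left out, and the median PIP difference was -0.31 to -0.07 when 1 array was left out. Over all probes, 416 called lower and 601 higher became 250 and 391 without a filter, 218 and 240 with the replicate block, 37 and 90 at a threshold of 0.01, 822 and 1165 at 0.10, and 40 to 603 and 103 to 936 when 1 array was left out. Uncalled PIP differences changed sign as follows; the cause was not tested. With normexp AB009665, AJ224327, AK061769 and AK104658 of PIP1-1 were at 0.049, -0.0015, 0.00043 and 0.010, AK072519 of PIP2-1 at 0.054 and AK119661 of PIP2-6 at 0.063. AK103807 was at 0.019 with quantile normalization and AJ224327 at -0.067 with array weights. Leaving out 1 array gave -0.18 to 0.15 for AJ224327, -0.22 to 0.13 for AK103807, -0.91 to 0.036 for PIP1-3, -0.37 to 0.22 and -0.34 to 0.24 for AK061782 and AK120386 of PIP2-2, and -0.33 to 0.014 for AK119661. Deviations of same-numbered arrays correlated at 0.409, -0.174 and 0.164, and those of differently numbered arrays at -0.487 to 0.349. With 3 arrays per genotype these values cannot decide whether the numbers pair the samples. The replicate block called 0 PIP probes, and NIP1-2 was not called with it (adjusted p 0.0983). Called probes were 456 higher and 493 lower with normexp, against 601 and 416. Slide could not be fitted as a block. The filter on dim probes kept 24 of the 30 probes of the listed PIP loci, and without it all 30 were tested and 0 called.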
